A study of Mus musculus with 13 samples.

Results

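The 10 genes described here belong to the actin cytoskeleton, and their RNA was measured in sorted common lymphoid progenitors (CLPs). They were taken from the TPM tables by exact gene name, and all 10 of the 10 names were found among 24972 listed genes. They encode the cytoplasmic actins (Actb and Actg1), the thymosins (Tmsb4x and Tmsb10), profilin (Pfn1), cofilin (Cfl1), coronin (Coro1a), and 3 subunits of the Arp2/3 complex (Arpc1b, Arpc2, and Arpc3). TPM is a transcript abundance, a level per transcript length that sums to 1000000 in each library.

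Actin monomers assemble into filaments that give lymphoid cells their shape and let them crawl, divide, and form contacts. Thymosins hold monomers in reserve, profilin feeds monomers to growing filament ends, cofilin severs old filaments, and the Arp2/3 complex starts side branches. Coronin regulates branch turnover, and in leukocytes this machinery is tied to migration and to survival of T cells. The actin monomer pool also feeds back on transcription through the serum response factor (SRF), which binds the CArG box of several actin genes.

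The bone marrow (BM) CLPs gave 5 WT, 5 Notch1+/-, and 3 Notch1+/dTAD libraries, made in 1 batch with a strand-specific 3′ kit from C57BL/6 adults of 6 to 12 weeks. Cells were collected separately from each mouse. Notch1+/- mice carry 1 inactivated Notch1 allele. Notch1+/dTAD mice carry 1 allele whose product lacks the transactivation domain and shares nuclear binding sites with the normal protein, and both mutations are in all cells of the mouse and not only in CLPs. Cells were gated as DAPI-, Lin-, Sca1 low, cKit low, CD127+, and CD135+, and the comparisons asked which transcripts in CLPs depend on Notch1 dose and on its transactivation domain.

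Of the genes that define the sort, Flt3 (CD135) was above 0 TPM in 13 of 13 libraries, Il7r (CD127) in 12, Kit in 8, and Ly6a (Sca1) in 5, while Dntt, an enzyme of lymphoid priming, reached 2095 to 9616 TPM. Read counts were not used here, and the depth of a value is therefore unknown. Libraries listed 2818 to 4736 genes at 1 TPM or more. The ranges of WT (3179 to 3855) and Notch1+/dTAD (3984 to 4663) did not overlap. That of Notch1+/- (2818 to 4736) overlapped both. Erythroid markers were at 0 in every WT library (10 of 10 genes). The platelet markers Pf4, Ppbp, and Itga2b were at 0 in all 13. In bulk RNA, fewer cells of a type and less RNA per cell cannot be told apart.

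The genes lie on 7 chromosomes by the GENCODE M21 annotation of GRCm38, the build that mm10 names. Actb is on chromosome 5 from 142903115 to 142906754 (minus strand, 6 exons) and Actg1 on chromosome 11 from 120345690 to 120348542 (minus strand, 6 exons). Each actin has 375 coding codons. Tmsb4x is on the X chromosome from 167207093 to 167209315 (minus strand) and Tmsb10 on chromosome 6 from 72957347 to 72958748 (minus strand), each with 44 coding codons. Pfn1 is on chromosome 11 from 70651850 to 70654644 (minus strand, 3 exons, a 3′ untranslated region of 277 bases), with no overlapping gene in the annotation. Cfl1 is on chromosome 19 from 5490455 to 5495201 (plus strand) and Coro1a on chromosome 7 from 126699773 to 126707787 (minus strand, 11 exons). Arpc1b is on chromosome 5 from 145114215 to 145130705, Arpc2 on chromosome 1 from 74236084 to 74268209, and Arpc3 on chromosome 5 from 122391878 to 122414184, all on the plus strand.

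The 3 members Arpc1b, Cfl1, and Coro1a share ground with a protein-coding gene on the other strand, so their values are less certain if strand was not used in counting, which the sources used here do not give. Pdap1 overlaps Arpc1b by 1937 bases and was listed at 69.5 to 1763 TPM. Snx32 overlaps Cfl1 by 2967 bases and reached only 0.808 TPM, and Bola2 overlaps Coro1a by 26 bases and was above 0 in 5 libraries. The coding parts of the 2 actins are close copies of each other, and how reads shared by both were assigned is not given in the sources used here.

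Promoter windows (250 bases before to 50 after the RefSeq start, build GRCm38.p6) were found for 9 of the 10 genes, 12 windows in all, and not for Actb. They are shown for Arpc3, Arpc2, and Pfn1, whose values separate whole genotypes below, and for Actg1, the 1 of these 9 genes with a CArG box in its window. Actb could not be searched. Both strands were searched for the GC box GGGCGG, the CArG box, the TATA box TATAAA, and TGGGAA, the core of the site bound by RBPJ, the DNA-binding partner of Notch. Capitals mark every match.
Arpc3, chr5:122391628-122391927, plus strand: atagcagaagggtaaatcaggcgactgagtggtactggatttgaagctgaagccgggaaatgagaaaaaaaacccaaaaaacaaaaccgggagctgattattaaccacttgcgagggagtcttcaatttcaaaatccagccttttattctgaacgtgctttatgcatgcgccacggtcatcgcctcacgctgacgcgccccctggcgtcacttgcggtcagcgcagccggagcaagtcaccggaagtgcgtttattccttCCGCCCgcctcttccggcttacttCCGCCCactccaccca
Arpc2, chr1:74236267-74236566, plus strand: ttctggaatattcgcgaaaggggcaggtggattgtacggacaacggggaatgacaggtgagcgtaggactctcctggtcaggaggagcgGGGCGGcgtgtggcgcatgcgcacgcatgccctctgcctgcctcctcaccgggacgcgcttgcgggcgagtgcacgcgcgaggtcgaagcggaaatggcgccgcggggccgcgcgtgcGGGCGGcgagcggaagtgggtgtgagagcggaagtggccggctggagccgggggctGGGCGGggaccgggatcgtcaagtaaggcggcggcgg
Pfn1, chr11:70654601-70654900, minus strand: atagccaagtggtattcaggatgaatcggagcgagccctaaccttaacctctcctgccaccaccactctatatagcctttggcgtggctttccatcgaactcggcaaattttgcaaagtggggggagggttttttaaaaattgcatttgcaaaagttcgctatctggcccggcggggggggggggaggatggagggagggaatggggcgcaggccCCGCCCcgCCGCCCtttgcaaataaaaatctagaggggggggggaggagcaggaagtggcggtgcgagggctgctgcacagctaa
Actg1, chr11:120348446-120348745, minus strand: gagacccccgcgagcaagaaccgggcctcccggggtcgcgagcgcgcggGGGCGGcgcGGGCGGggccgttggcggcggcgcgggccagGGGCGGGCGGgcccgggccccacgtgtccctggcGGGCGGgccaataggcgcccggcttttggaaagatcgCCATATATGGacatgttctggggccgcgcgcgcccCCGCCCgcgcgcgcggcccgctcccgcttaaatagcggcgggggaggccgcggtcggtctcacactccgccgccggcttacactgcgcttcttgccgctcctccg
GC boxes were in all 12 windows, compared with 35.7% of 32851 promoter windows of all genes and 64.7% of the 632 windows of genes at 1 TPM or more in all 13 libraries. The CArG box of Actg1, CCATATATGG, begins 90 bases before the start, and this motif was in 1.63% of all windows and 0.791% of those 632. TGGGAA was in 0 of the 12 windows, in 25.6% of all windows, and in 18.8% of the 632. TATAAA was in 0 of 12, 13.6%, and 10.1%. A match is a run of letters in this window, and the absence of one does not bear on sites elsewhere. GC boxes overlap each other in Actg1.

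All members but Pfn1 were above 0 TPM in each of the 13 libraries. The 10 genes together held 1.06% to 1.79% of all TPM in WT libraries (median 1.55%), 0.930% to 1.74% in Notch1+/- (median 1.46%), and 1.66% to 2.26% in Notch1+/dTAD (median 2.10%). Tmsb4x led in each genotype by mean TPM. In WT it had 3470 ± 834 TPM (SD, n = 5), followed by Actb with 2785 ± 780, Cfl1 with 1762 ± 1138, Arpc1b with 1685 ± 597, and Tmsb10 with 1620 ± 743. Arpc3 (1128 ± 322 TPM), Arpc2 (1076 ± 479), and Actg1 (917 ± 221) came next, each with a range that overlapped its neighbour's. Coro1a, at 320 ± 144 TPM, lay below every Actg1 value and above Pfn1, and no other neighbours in this order were separated. The reads start near the 3′ end whereas TPM divides by transcript length, so the order between short transcripts (Tmsb10, 690 bases) and long ones (Arpc1b, 3105 bases) also carries their length.

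**Figure D1:**
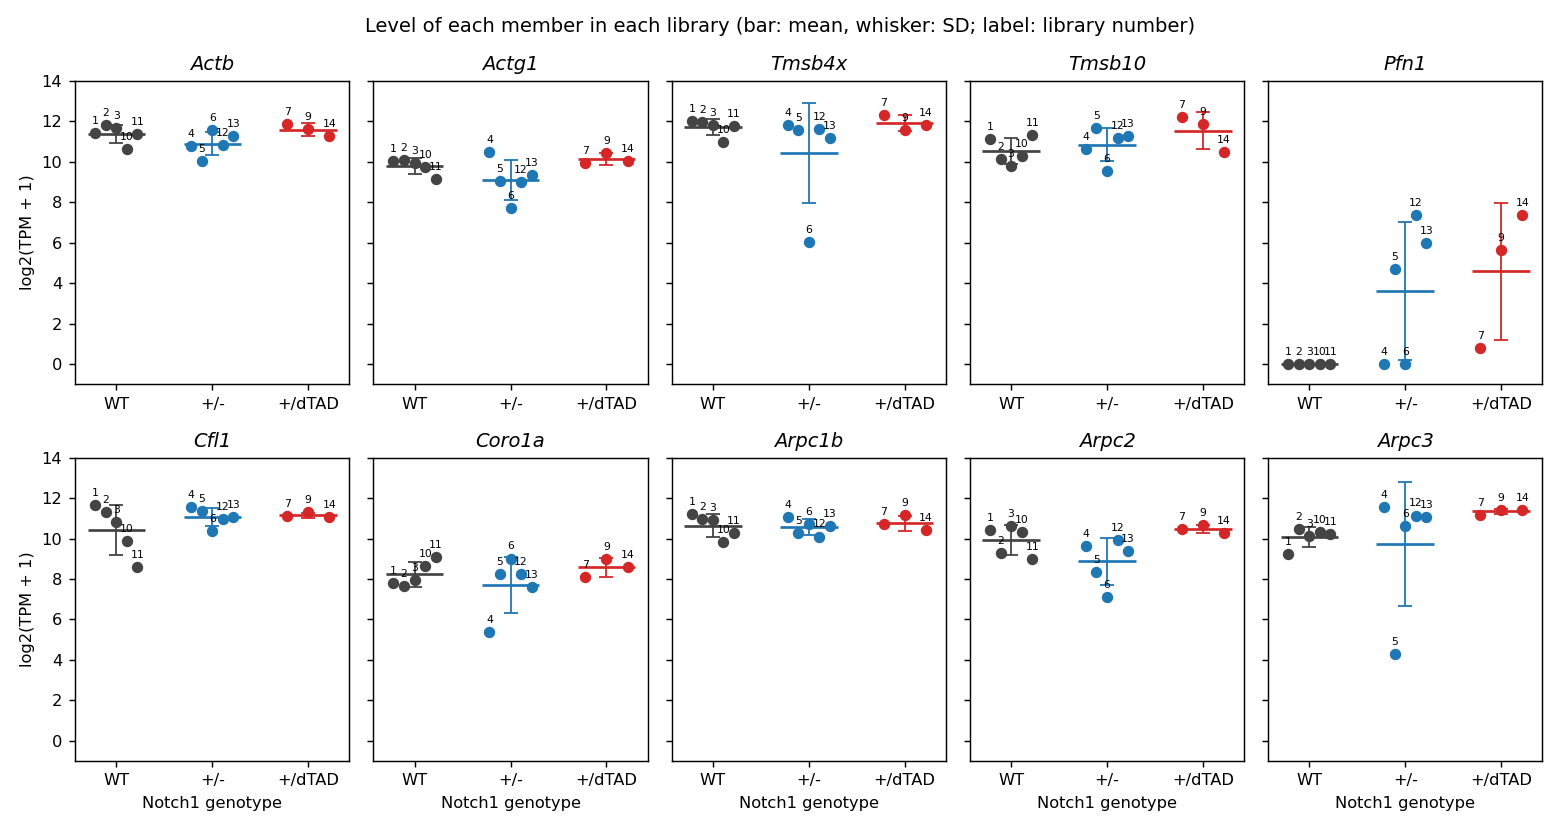
Level of each of the 10 genes as log2(TPM + 1) on the vertical axis, by Notch1 genotype on the horizontal axis, with 1 point per library labelled by its number, a bar at the mean, and a whisker of 1 SD. Arpc3 shows 3 Notch1+/dTAD points above all 5 WT points and 1 Notch1+/- point (library 5) far below, Tmsb4x has 1 low point (library 6), and Pfn1 is at 0 in all 5 WT libraries.

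Actb encodes beta-actin, the main actin of most non-muscle cells. In WT libraries 1, 2, 3, 10, and 11 it was listed at 2713, 3644, 3319, 1608, and 2641 TPM. Notch1+/- libraries 4, 5, 6, 12, and 13 gave 1740, 1051, 3049, 1828, and 2517 TPM, and Notch1+/dTAD libraries 7, 9, and 14 gave 3772, 3163, and 2458 TPM. All 3 genotypes overlapped. The log2 fold change against WT on the log2(TPM + 1) scale was 0.20 in Notch1+/dTAD (95% interval -0.50 to 0.90, limma adjusted p = 0.996) and -0.49 in Notch1+/- (-1.26 to 0.28, adjusted p = 0.978). Single libraries moved both. In Notch1+/dTAD it was 0.015 without WT library 10, 0.055 without library 7, 0.31 without WT library 2, and 0.36 without library 14, and in Notch1+/- it was -0.27 without library 5.

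Actg1 encodes gamma-actin, which differs from beta-actin by a few residues at its start. Its WT values were 1070, 1103, 997, 855, and 560 TPM, its Notch1+/- values 1423, 536, 207, 518, and 647 TPM, and its Notch1+/dTAD values 976, 1405, and 1053 TPM. In 3 of the 5 Notch1+/- libraries Actg1 was below all WT libraries, and library 4 was above all WT libraries. Against WT, Actg1 had a log2 fold change of 0.34 in Notch1+/dTAD (95% interval -0.62 to 1.30, adjusted p = 0.996) and of -0.68 in Notch1+/- (-1.84 to 0.48, adjusted p = 0.993). Leaving out library 6 moved the latter to -0.33, and the former was 0.17 without WT library 11 and 0.19 without library 9. Actb exceeded Actg1 in every one of the 13 libraries, by a ratio of 1.88 to 4.72 in WT, 1.22 to 14.7 in Notch1+/-, and 2.25 to 3.86 in Notch1+/dTAD.

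Tmsb4x encodes thymosin beta 4, the most abundant monomer-holding peptide of blood cells. It was listed at 4166, 3969, 3618, 2048, and 3549 TPM in WT, at 3633, 3035, 65.0, 3185, and 2337 TPM in Notch1+/-, and at 5168, 3035, and 3581 TPM in Notch1+/dTAD. Library 6 thus stood at rank 1339 among listed genes, whereas in the other 12 libraries Tmsb4x was among the 100 highest. The log2 fold change was 0.18 for Notch1+/dTAD against WT (95% interval -0.47 to 0.84, adjusted p = 0.996), with -0.032 when library 7 was left out, 0.0048 without WT library 10, and 0.35 without library 9. For Notch1+/- against WT it was -1.27 (-3.11 to 0.58, adjusted p = 0.978), and -0.16 without library 6.

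Tmsb10, a paralog with the same monomer-binding fold, was listed at 2217, 1136, 893, 1253, and 2598 TPM in WT. Notch1+/- libraries had 1572, 3246, 738, 2294, and 2455 TPM, and Notch1+/dTAD libraries 4777, 3771, and 1438 TPM. Libraries 7 and 9 were above every WT library, and library 14 was within the WT range. Its log2 fold change in Notch1+/dTAD against WT, 0.99, was the second largest of the 9 members tested (95% interval -0.031 to 2.01, adjusted p = 0.952, exact permutation p = 0.125). It was 0.64 without library 7 and 1.51 without library 14. Within library numbers 1 to 9 the difference of log2 means was 1.69, and within 10 to 14 it was -0.33 with 1 Notch1+/dTAD library. Tmsb4x exceeded Tmsb10 in all 5 WT libraries, by 1.37 to 4.05, but in only 2 of 5 Notch1+/- and 2 of 3 Notch1+/dTAD libraries, a ratio given here as a description without a test.

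Profilin-1 is an abundant protein in most cells, yet Pfn1 was listed at 0 in all 5 WT libraries. The Notch1+/- libraries gave 0, 24.7, 0, 163, and 62.4 TPM, and the Notch1+/dTAD libraries gave 0.750, 48.1, and 163 TPM. Every Notch1+/dTAD library was therefore above every WT library, and 3 of 5 Notch1+/- libraries were. Pfn1 had too few libraries at 1 TPM for limma in both comparisons with WT. A 2-sided exact permutation test of mean log2(TPM + 1) gave p = 0.0179 for Notch1+/dTAD, the smallest that 56 splits allow, and p = 0.167 for Notch1+/-. With WT at 0 throughout, the first value follows once all 3 Notch1+/dTAD libraries are above 0, and library 7 was at 0.750 TPM. It does not measure how far above 0 they were. No fold change is given against a group listed at 0. Without read counts a listed 0 is not shown to be absence. Of 101 other actin regulators, a list described below, 17 were also at 0 in every WT library. Of these 17, 8 were at 0 in all 13 libraries, unlike Pfn1.

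Cfl1 encodes cofilin-1, the filament-severing protein. WT libraries spread over 8.39-fold, from 3177, 2506, and 1826 TPM in libraries 1, 2, and 3 to 924 and 379 TPM in libraries 10 and 11. Notch1+/- libraries had 3005, 2588, 1338, 1976, and 2157 TPM, and Notch1+/dTAD libraries 2201, 2520, and 2159 TPM, all within the WT range. The log2 fold change was 0.72 in Notch1+/dTAD (95% interval -0.54 to 1.99, adjusted p = 0.972) and 0.62 in Notch1+/- (-0.49 to 1.74, adjusted p = 0.993). Without WT library 11, these were 0.26 and 0.16.

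Coro1a encodes coronin-1A, the leukocyte coronin, whose loss in mice and patients lowers peripheral T cells. Its WT values were 224, 198, 243, 396, and 538 TPM, in Notch1+/- 40.9, 306, 514, 303, and 195 TPM, and in Notch1+/dTAD 273, 512, and 390 TPM. The groups overlapped, with log2 fold changes of 0.35 in Notch1+/dTAD (95% interval -1.14 to 1.84, adjusted p = 0.996) and -0.52 in Notch1+/- (-2.17 to 1.14, adjusted p = 0.993). Without library 4, the lowest of the 13, the latter was 0.064, and it was -0.30 without WT library 11 and -0.84 without library 6. The former was 0.13 without library 9, 0.21 without WT library 2, 0.57 without WT library 11, and 0.59 without library 7.

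Arpc1b, the leukocyte form of the Arp2/3 subunit that regulates complex activity, was the steadiest member, with an SD of 0.43 on the log2 scale over 13 libraries. It was at 2378, 1988, 1917, 912, and 1233 TPM in WT, at 2144, 1247, 1699, 1095, and 1586 TPM in Notch1+/-, and at 1678, 2261, and 1351 TPM in Notch1+/dTAD. No genotype stood apart. Its log2 fold changes were 0.12 in Notch1+/dTAD (95% interval -0.77 to 1.00, adjusted p = 0.996) and -0.074 in Notch1+/- (-0.89 to 0.74, adjusted p = 0.993), and both crossed 0 when single libraries were left out.

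Arpc2, which with another subunit forms the core of the complex, was at 1373, 627, 1595, 1272, and 510 TPM in WT and at 1430, 1615, and 1255 TPM in Notch1+/dTAD. In Notch1+/- it was at 801, 326, 136, 975, and 661 TPM, so that all 3 Notch1+/dTAD libraries were above all 5 Notch1+/- libraries, as for 2.44% of tested genes. Tested directly between the mutants in 1 model of 13 libraries, Arpc2 had a log2 fold change of 1.60 (SE 0.67, 95% interval 0.20 to 2.99, unadjusted p = 0.0266, adjusted p = 0.932, exact permutation p = 0.0714). Both ranges of library numbers showed this order, 1 to 9 (136 to 801 against 1430 to 1615 TPM) and 10 to 14 (661 to 975 against 1255 TPM). Single libraries left out moved it between 1.15 and 1.86, and eBayes without the mean-variance trend gave an unadjusted p of 0.133. Against WT the log2 fold changes were 0.54 in Notch1+/dTAD (-0.50 to 1.59, adjusted p = 0.984) and -1.05 in Notch1+/- (-2.37 to 0.26, adjusted p = 0.969), the latter -0.61 without library 6 and the former 0.31 without WT library 11.

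Arpc3, a small subunit on the outside of the complex, was the member with the smallest p-value against WT. Its WT values were 594, 1439, 1122, 1296, and 1190 TPM, and its values in Notch1+/dTAD libraries 7, 9, and 14 were 2319, 2707, and 2757 TPM. The highest WT library was below the lowest Notch1+/dTAD library, as in the 3.12% of tested genes whose groups did not overlap in either direction. The log2 fold change was 1.26 (SE 0.40, 95% interval 0.41 to 2.11), which is a fold of 2.39, with an unadjusted p of 0.00691 and an adjusted p of 0.590 in limma, and Arpc3 ranked 55th by p-value among 4737 genes. The exact permutation p was 0.0179, the smallest the design allows. The groups were separated both within library numbers 1 to 9 (594 to 1439 against 2319 to 2707 TPM) and within 10 to 14 (1190 to 1296 against 2757 TPM). Leaving out single libraries gave 1.04 to 1.36, and quantile normalization gave 1.13. The unadjusted limma p was 0.193 (SE 0.90) without the mean-variance trend in eBayes and 0.253 (SE 1.07) in the model of 13 libraries.

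Arpc3 in Notch1+/- libraries 4, 5, 6, 12, and 13 was at 3028, 18.3, 1559, 2251, and 2167 TPM. Of these 5, 4 were thus above every WT library, while library 5 was the lowest of the 13. The log2 fold change with all libraries was -0.35 (95% interval -2.66 to 1.96, adjusted p = 0.993), and without library 5 it was 1.02 (SE 0.39, adjusted p = 0.893). Between the mutants it was 1.60 with all libraries (-0.62 to 3.83, adjusted p = 0.997) and 0.24 without library 5. Both comparisons with WT share the same 5 WT libraries.

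**Figure D2:**
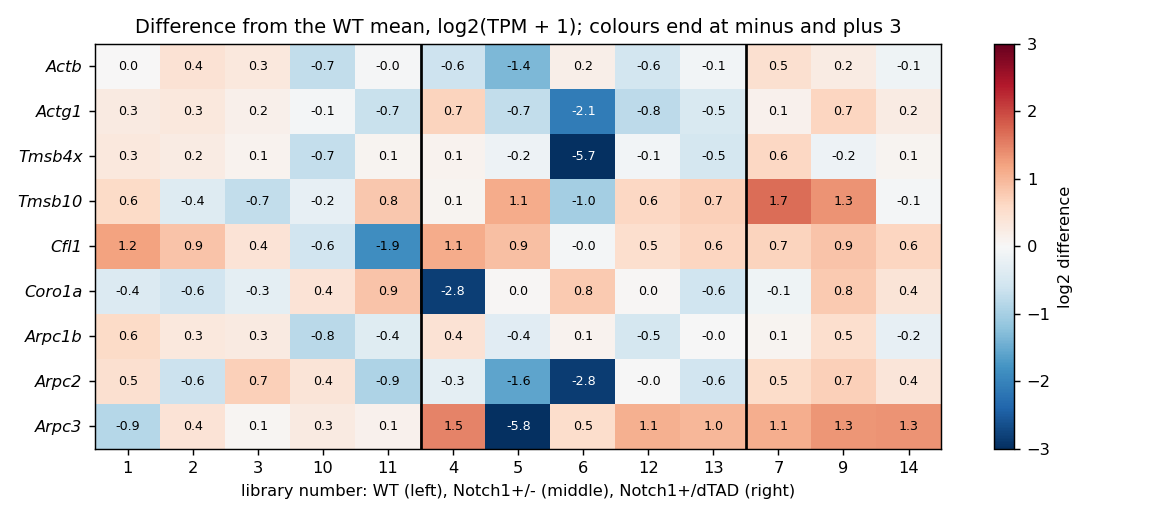
Difference of each gene from its WT mean on the log2(TPM + 1) scale in each of 13 libraries, for the 9 genes other than Pfn1, with red above and blue below the WT mean and colours ending 3 units either side of 0. The row of Arpc3 is red in all 3 Notch1+/dTAD and in 4 of 5 Notch1+/- libraries, and the darkest blue cells are Arpc3 in library 5 and Tmsb4x, Arpc2, and Actg1 in library 6, with Coro1a in library 4.

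The Arp2/3 subunits did not keep a fixed proportion. The ratio of Arpc3 to Arpc2 ran from 0.433 to 2.33 in WT, from 0.0562 to 11.5 in Notch1+/-, and from 1.62 to 2.20 in Notch1+/dTAD libraries. Arpc3 exceeded Arpc1b in 1 of 5 WT, 3 of 5 Notch1+/-, and 3 of 3 Notch1+/dTAD libraries. These subunits enter the complex in equal numbers, and TPM ratios are descriptions of the listed RNA only.

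**Figure D3:**
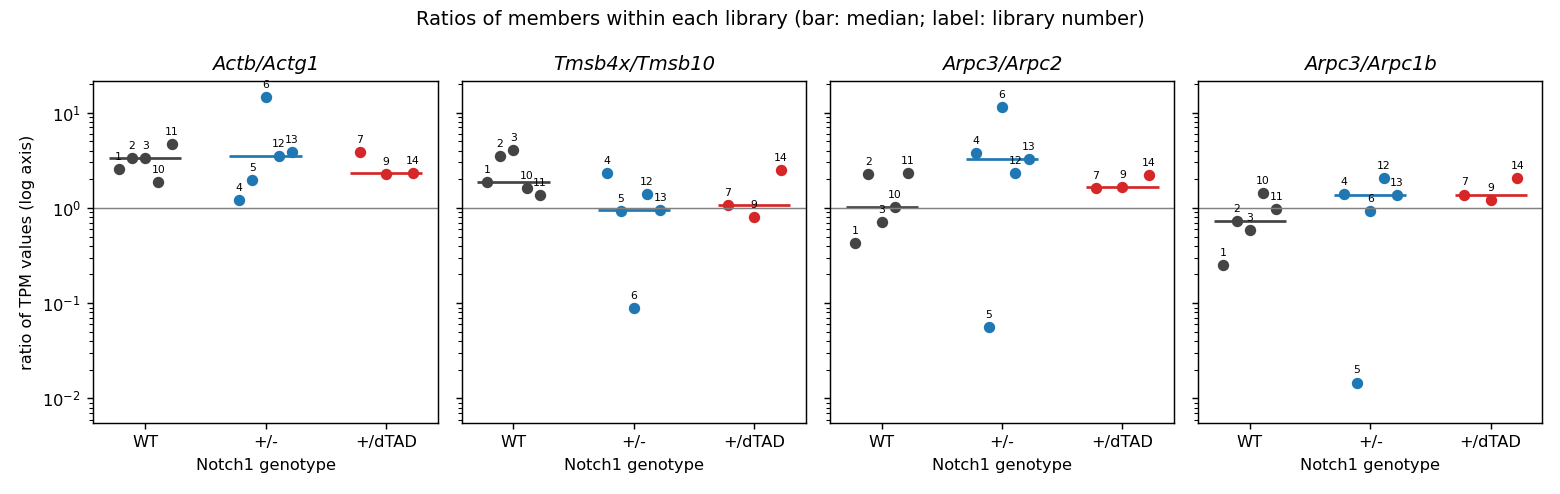
Ratios of TPM values of paired members within each library, on a log axis, by Notch1 genotype, with 1 point per library labelled by its number and a bar at the median. Actb over Actg1 is above 1 in all 13 libraries, and the ratio of Tmsb4x to Tmsb10 is above 1 in all 5 WT libraries and down to 0.0880 in Notch1+/- library 6.

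In the comparison of Notch1+/dTAD with WT, 9 of the 10 members were tested with limma and 0 passed an adjusted p under 0.05, as did 0 of all 4737 genes tested (0%). Without the mean-variance trend in eBayes, 15 genes passed and 0 members. At an unadjusted p under 0.05 there was 1 member, Arpc3, of 9, beside 5% of all genes (4.14% higher and 0.866% lower). The same gene was the 1 tested member without overlap, where 3.12% of all tested genes were without overlap, 2.39% higher and 0.739% lower. Pfn1 was also without overlap, but it was not tested and is outside these shares. All 9 log2 fold changes were above 0, between 0.12 and 1.26, as were 61.8% of those of all genes. The members' median of 0.35 lay below the median of all tested genes, 0.47, and 4 of the 9 members exceeded it. After quantile normalization the median of all genes was -0.03, the members' median was 0.37, and 9 of 9 exceeded it, with 129 genes higher and 70 lower at an unadjusted p under 0.05 in place of 196 and 41. Notch1+/dTAD libraries also listed more genes at 1 TPM or more than WT libraries did. The part of this number in these values was not tested.

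Between Notch1+/- and WT, 9 members were tested and 0 passed, with 0 (0%) of 3178 genes called. At an unadjusted p under 0.05 there were 0 members against 5.35% of all genes (2.67% higher and 2.67% lower), and 0 members were without overlap against 0.787% (0.409% higher and 0.378% lower). Only Tmsb10 and Cfl1 had log2 fold changes above 0 among the members, and 51.4% of all genes did. The members' median was -0.49, whereas that of all genes was 0.058, and the members ran from -1.27 (Tmsb4x) to 0.62 (Cfl1). Leaving out library 5 brought the members' median to -0.27 and leaving out library 12 to -0.65.

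Between Notch1+/dTAD and Notch1+/-, all 10 members were tested and 0 passed, as did 0 (0%) of 6281 genes. Arpc2 was the 1 member at an unadjusted p under 0.05 (5.33% of all genes, 4.09% higher and 1.24% lower) and the 1 without overlap (3.06% of all genes, 2.44% higher and 0.621% lower). All 10 log2 fold changes were above 0, from 0.10 for Cfl1 to 1.60 for Arpc3, as were 58.9% of those of all genes. Their median of 0.93 stood beside 0.35 for all genes. Without library 6 it was 0.51. Actb (0.69, adjusted p = 0.992), Actg1 (1.02, adjusted p = 0.997), Tmsb4x (1.45, adjusted p = 0.992), Tmsb10 (0.68, adjusted p = 0.997), and Coro1a (0.87, adjusted p = 0.997) all had intervals that included 0. Without library 6, Tmsb4x was 0.35, Actg1 0.67, and Tmsb10 0.35, and without library 4, Coro1a was 0.29. Tmsb10 was 0.34 without library 7 and 1.20 without library 14.

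**Figure D4:**
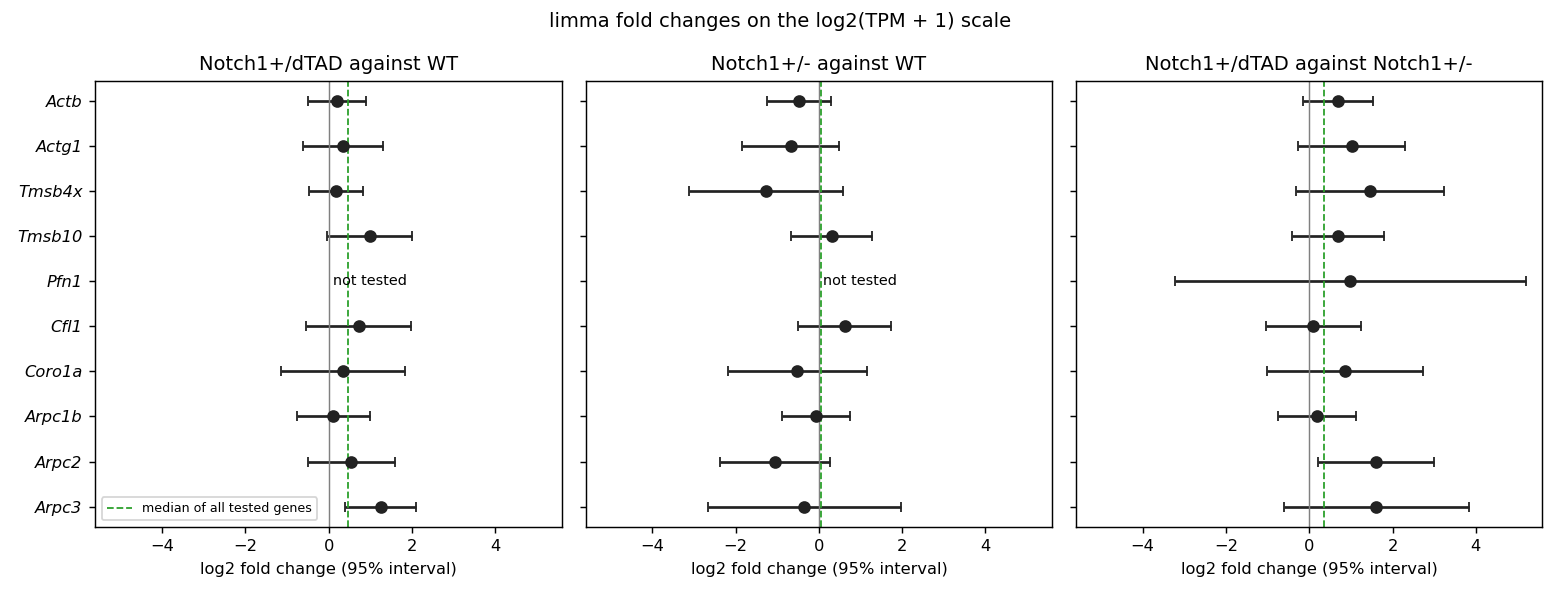
Log2 fold change of each member on the log2(TPM + 1) scale with its 95% interval from limma, in 3 comparisons, with a dashed line at the median of all tested genes. The intervals of Arpc3 in Notch1+/dTAD against WT (0.41 to 2.11) and of Arpc2 in Notch1+/dTAD against Notch1+/- (0.20 to 2.99) lie above 0, and Pfn1 was not tested against WT.

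Markers of other cells were set beside these values. The summed TPM of 11 neutrophil and monocyte markers was 436 to 2461 in WT, 450 to 1512 in Notch1+/-, and 366 to 2042 in Notch1+/dTAD, ranges that overlapped, with medians of 873, 729, and 1882. Lyz2 was at 0 in every WT library and reached 90.9 TPM in Notch1+/dTAD (median 61.1), and Ngp was at 93.8 to 327 TPM in Notch1+/dTAD and 0 to 467 in WT (median 0). S100a8 had the highest mean TPM of this list. It was at 0 to 1803 TPM in WT (median 0) and 0 to 1015 in Notch1+/dTAD (median 610). For S100a9 these were 0 to 871 (median 177) and 138 to 528 (median 397). Other markers of this list went the other way. Csf1r had a median of 134 TPM in WT and 55.8 in Notch1+/dTAD. Camp was above 0 in only 1 WT library (201 TPM) and at 0 throughout Notch1+/dTAD. The part of these markers in the higher values of Arpc3 and Pfn1 in Notch1+/dTAD was not tested. For 8 platelet and megakaryocyte markers the summed TPM was 0 in every WT and Notch1+/- library and 0 to 65.6 in Notch1+/dTAD, all from Itgb3, while 7 of the 8 were at 0 in all Notch1+/dTAD libraries. B lineage markers (8 genes) summed to 6.00 to 1084 TPM in WT, 14.5 to 1839 in Notch1+/-, and 79.5 to 1715 in Notch1+/dTAD. T and NK markers (8 genes) summed to 0 to 1309, 0 to 36.7, and 0 to 262 TPM, plasmacytoid dendritic markers (5 genes) to 198 to 1646, 211 to 915, and 151 to 1914 TPM, stroma and endothelium markers (6 genes) to 0 to 155, 0 to 46.9, and 0 to 77.3 TPM, and erythroid markers (10 genes) to 0, 0 to 17.6, and 0 to 1.36 TPM, in the same order of genotypes.

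Across the 13 libraries the members did not vary as 1 block. Over the 36 pairs of the 9 members other than Pfn1, Pearson correlations of log2(TPM + 1) ranged from -0.52 (Cfl1 with Coro1a) to 0.82 (Actg1 with Arpc2), with a median of 0.17 and 23 above 0. The value for Actg1 with Arpc2 was 0.46 without Notch1+/- libraries 5 and 6, a choice made after the values were seen. Points in these correlations share library and genotype, and no test was made. Within WT, libraries 1 to 3 lay above libraries 10 and 11 for Actb, Actg1, Tmsb4x, Cfl1, and Arpc1b, and below them for Coro1a. For Tmsb10, Arpc2, and Arpc3 these WT libraries overlapped. Of 591 other genes at 1 TPM or more in every library, the pattern most like that of Actb was that of Tubb5, a beta-tubulin (Pearson 0.85, Spearman 0.78, 289 to 1282 TPM). Lypla2 (0.82), Dut (0.78), Rpl22l1 (0.75), and Lsm6 (0.74) followed, whereas Actg1 was at rank 193 (0.15). Among the members, Arpc3 had a Pearson value of 0.59 with Actb but a Spearman value of 0.049, and its Pearson value was -0.16 without libraries 5 and 6. Arpc1b had 0.56 and 0.54, and 0.55 without those libraries.

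Other genes of the pathway were taken from a list made by function, of which 101 were in the tables. They include other Arp2/3 subunits, monomer binding and severing, capping, nucleation, crosslinking, actomyosin, and SRF with its cofactors. Of these, 19 were above 0 in all 13 libraries and 8 were at 0 in all 13. By limma, 0 of the 72, 65, and 83 tested passed in Notch1+/dTAD against WT, in Notch1+/- against WT, and between the mutants, and at an unadjusted p under 0.05 there were 2, 3, and 4, beside 5%, 5.35%, and 5.33% of all genes. Their median log2 fold changes were 0.43, -0.19, and 0.53, where those of all genes were 0.47, 0.058, and 0.35. After quantile normalization they were 0.15, -0.19, and 0.092, where those of all genes were -0.035, -0.027, and -0.018.

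In Notch1+/dTAD against WT the 2 regulators with the smallest p-values on the higher side were Pak1 and Cnn2. Pak1, a kinase downstream of Rac and Cdc42, was listed at 0 in all 5 WT libraries, at 0, 0, 2.93, 3.95, and 35.9 TPM in Notch1+/-, and at 34.2, 17.1, and 41.2 TPM in Notch1+/dTAD. It passed the filter of 1 TPM in 3 libraries only through the Notch1+/dTAD libraries, so its p-value is not given. Cnn2, a calponin that binds filaments, was at 0 to 38.8 TPM in WT and 36.4 to 224 TPM in Notch1+/dTAD (log2 fold change 4.03, SE 1.80, adjusted p = 0.952). On the lower side were Capza2, a subunit of the capping protein, at 28.5 to 154 TPM in WT and 0.176 to 31.9 TPM in Notch1+/dTAD (-2.92, SE 1.56, adjusted p = 0.952), and Evl, an Ena/VASP protein that promotes filament elongation, at 0 to 142 and 0 to 0.455 TPM. Evl passed the filter only through 3 WT libraries, and no test of it is given.

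In Notch1+/- against WT, Arpc1a, the broadly expressed counterpart of Arpc1b, was at 0 in 4 of 5 WT and 1 of 5 Notch1+/- libraries and otherwise reached 213 and 363 TPM. Of the 5 libraries by which Arpc1a passed the filter, 4 were Notch1+/-, and no test of it is given. Capzb, the other capping subunit, was at 273 to 469 TPM in WT but at 655, 0, 0, 132, and 220 TPM in Notch1+/- (log2 fold change -3.72, SE 1.68, adjusted p = 0.892). Cdc42, the GTPase that activates WASP, was at 181 to 491 and 3.56 to 308 TPM (-2.26, SE 1.14, adjusted p = 0.921). Neither Capzb nor Cdc42 passed the threshold.

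Between the mutants, Dock2, the Rac activator of lymphocytes, was at 20.4 to 140 TPM in Notch1+/dTAD and 0 to 17.3 TPM in Notch1+/- (log2 fold change 4.81, SE 1.98, adjusted p = 0.932), and Capzb had 314 to 840 TPM in Notch1+/dTAD (4.13, SE 1.70, adjusted p = 0.932). Vasp, a filament elongation factor, was at 0 to 0.170 and 0.518 to 132 TPM (-4.20, SE 1.99, adjusted p = 0.932), and the formin Fmnl1 at 0 to 26.7 and 5.32 to 118 TPM (-3.00, SE 1.85, adjusted p = 0.997).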

How the data were processed

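The authors prepared QuantSeq 3′ libraries, used FASTQ Toolkit for trimming and STAR for alignment to mm10, and the deposited TPM values are in 2 tables that share identical WT columns. Each library sums to 1000000. The tool, annotation, and strand setting behind the TPM are not given in the sources used here, and without counts the depth is unknown and the study's DESeq2 test was not run.

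On the log2(TPM + 1) scale, groups were compared with limma 3.58.1 in R 4.3.3 (lmFit, eBayes with trend, 2-sided), over genes that reached 1 TPM in a minimum of 3, 5, and 3 libraries in the 3 comparisons, with Benjamini-Hochberg adjustment over all genes and 0.05 as the threshold. The mutants were compared in a model of 13 libraries. For single members a 2-sided exact permutation test on the group means was added, unadjusted. Genotypes came from the labels. Scripts were tested on simulated data. Regulators were named by the 2 smallest p-values in each direction, or by mean TPM (3 genes), and the 5 genes most like Actb by Pearson correlation. Of the regulators so named, 1 is not reported here. The members and lists were chosen with earlier results of these data known. Each value was recomputed with pseudocounts of 0.1 or 10, with other gene filters (any TPM, or 10 TPM on average), quantile or median-ratio scaling, eBayes robust or without trend, array weights, the range of library numbers in the model, another set of libraries, no p-value adjustment, and each library left out.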

Additional observations from a re-analysis of the deposited data

Results flagged for a closer look

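In 23 groups of 5 libraries (each member on the log2(TPM + 1) scale and 2 library measures, in WT and in Notch1+/-, without Pfn1 in WT, which was at 0 throughout), the gap of the extreme library to its neighbour, as a share of the range, was above Dixon's limit of 0.71 in 4. By chance about 1 in 20 groups, or 1.15, would be. All 4 are low values. Tmsb4x was low in Notch1+/- library 6, at 6.04 (65.0 TPM) with the other libraries at 11.2 to 11.8, and in WT library 10, at 11.0 (2048 TPM) with the others at 11.8 to 12.0. Arpc3 was low in Notch1+/- library 5, at 4.27 (18.3 TPM) with the others at 10.6 to 11.6, and in WT library 1, at 9.22 (594 TPM) with the others at 10.1 to 10.5. Library 6 listed 2818 genes at 1 TPM or more, the fewest of the 13, and library 5 listed 3161. WT library 10 listed 3298, and WT library 1 listed 3855, the most of the 5 WT libraries. The part of this number in the low values was not tested.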

How the results depend on the processing

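No paired analysis was possible because the labels give no pairing of libraries between genotypes. Of 600 alternative values for 28 log2 fold changes of members, 588 kept their direction and their side of the threshold, 12 changed sign, and 0 passed it (lowest adjusted p 0.423). Many of the 600 could not change sign. Other gene filters, eBayes settings, and sets of libraries leave a fold change as it is, as does leaving out a WT library between the mutants. With single libraries left out, the log2 fold change in Notch1+/dTAD against WT ran from -0.032 to 0.35 for Tmsb4x and from -0.084 to 0.29 for Arpc1b. For Notch1+/- and WT the ranges were -0.84 to 0.064 for Coro1a, -0.27 to 0.071 for Arpc1b, and -0.81 to 1.02 for Arpc3, and array weights gave 0.14 for Arpc3. Between the mutants it ran from -0.39 to 2.88 for Pfn1, from -0.069 to 0.22 for Cfl1, and from -0.0054 to 0.37 for Arpc1b. With eBayes without trend, 15, 2, and 3 genes passed in Notch1+/dTAD against WT, Notch1+/- against WT, and between the mutants, and 0 members did. At an unadjusted p under 0.05 there were 237, 170, and 335 genes, 1, 0, and 1 members, and 2, 3, and 4 regulators. Across the fits without 1 library, 0 genes passed. The cause was not tested. Without read counts, how far a listed 0 limits Pfn1 cannot be stated.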

Other observations

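Among the regulators with the highest mean TPM were 3 genes of the actomyosin group. Myl6, a myosin light chain, was at 580 to 1103 TPM in WT, 376 to 1926 in Notch1+/-, and 830 to 1451 in Notch1+/dTAD. Tpm3, a tropomyosin that coats filaments, was at 394 to 1495, 247 to 993, and 494 to 860 TPM. Tagln2, a calponin-related protein of leukocytes, was at 326 to 1125, 9.85 to 1051, and 559 to 1572 TPM. All 3 overlapped between genotypes. Over the 13 libraries the other Arp2/3 subunits had means of 12.9 to 305 TPM and the 3 members means of 967 to 1727. Among the members, Arpc2 fell to 136 TPM and Arpc3 to 18.3 TPM in single Notch1+/- libraries. Actr3 was above 0 in 13 libraries (69.2 to 396 TPM), Arpc5l and Arpc4 in 12, Actr2 in 10, and Arpc5 and Arpc1a in 8. The summed TPM of all 6 was 708 to 1339 in WT, 117 to 1163 in Notch1+/-, and 705 to 1015 in Notch1+/dTAD. Srf was above 0 in 8 libraries and no higher than 22.7 TPM, and the summed TPM of Srf and its cofactors Mkl1 and Mkl2 was 0 to 19.1 in WT, 0 to 46.4 in Notch1+/-, and 13.3 to 30.4 in Notch1+/dTAD. Leukocyte genes of the pathway that were above 0 in all 13 libraries included Rac2 (132 to 656 TPM), Lcp1 (20.7 to 857 TPM), and Gmfg (1.41 to 554 TPM), which are named here after their values were seen.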
